A study of Oryctolagus cuniculus with 27 samples.

Results

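The genes that build sterols and fatty acids were followed in rabbits fed cholesterol, in aortic valve cusps, ascending aorta and left ventricular myocardium. The set was chosen by name: 31 genes of cholesterol synthesis, sterol sensing and fatty acid synthesis, of which 28 are listed in the count tables among 31346 genes. FASN, the fatty acid synthase, SCD, the stearoyl-CoA desaturase, and DHCR7, the enzyme of a last step to cholesterol, are not listed under these symbols and are not analysed here. IDI1 and CYP51A1 are listed as LOC100343510 and LOC100355623, gene numbers that the RefSeq gene table (assembly mOryCun1.1) pairs with these symbols. All 28 passed the filter on low counts in every tissue.

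All animals were male New Zealand rabbits of wild-type genotype. The diet groups received 1% cholesterol and 3500 IU ergocalciferol (vitamin D2), the controls normal chow, so cholesterol and vitamin D2 cannot be told apart here. Valve cusps were taken after 2, 4 and 7 weeks of diet (n = 4 each) and from 4 controls; the titles of 3 controls name 7 weeks and 1 names 2 weeks, while the design text says that controls came from 2 and 4 weeks. Ascending aorta had 2 diet and 3 control libraries and myocardium 3 and 3, with no duration given. The animals' ages are not given. Each valve library holds 1 cusp, with most surrounding fat trimmed away. By the animal names, the 3 diet myocardia come from 7-week valve animals, 2 control myocardia from control valve animals, and diet aorta 1 from a 2-week valve animal. Per the labels RNA was sequenced with a directional kit; whether counting used the strand, and so whether antisense reads enter a gene's count, is not given in the sources used here.

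Cholesterol is made from acetyl-CoA through mevalonate, squalene and lanosterol. The transcription factor SREBP-2, encoded by SREBF2, switches the enzymes on when membranes hold little sterol; SCAP carries it out of the endoplasmic reticulum, and INSIG1 and INSIG2 hold the pair back when sterol is plentiful. In liver, cholesterol feeding is known to lower these transcripts, and INSIG1 is itself a target of the factor. Fatty acid synthesis starts from the same acetyl-CoA, supplied by ACLY and carboxylated by ACACA; ELOVL6 lengthens the chains, and FADS1 and FADS2 desaturate polyunsaturated ones.

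Depth was 8458453 to 19998954 counts per valve library, 11509616 to 16107428 in aorta and 13954438 to 17322373 in myocardium. Levels of single genes below are CPM, counts scaled to library size by TMM within a tissue unless a common scale is named. Summed levels of marker genes are CPM on the plain total count of the library, without the TMM factor. That factor ran from 0.784 in valve 7-week replicate 2 to 1.161 in myocardium control replicate 3. The marker sums are therefore on another scale than the gene levels. Gene lengths are not given, so levels are compared between libraries and not between genes. Changes are log2 fold changes with the SE of edgeR's quasi-likelihood fit, and called means an adjusted p (Benjamini-Hochberg over all genes tested) under 0.05. Smooth muscle genes summed to 52420 to 63120 CPM in aortas, above the 8889 to 44680 CPM in valves. Cardiomyocyte genes summed to 71650 to 103900 CPM in myocardium, above the 896.0 to 38320 CPM in valves. Fibroblast and valve interstitial genes summed to 8564 to 31160 CPM in valves and to 12180 to 17030 CPM in aortas. This last list therefore does not tell valve from aorta. Several libraries stood apart. Valve 7-week replicate 2 had the lowest depth, the highest heart muscle content of its group and the lowest level of all 16 valves for 14 of the 28 genes. Valve 4-week replicate 4 was highest of the valves for 9. Aorta control replicate 2 was highest of the 5 aortas for 24 of the 28. Medians and the values that leaving one of them out moved most are also given without it. The 7-week valves carry another range of library numbers in the labels than the other valves; a sequencing run is not named, and if one went with these numbers it cannot be told apart from 7 weeks of diet. Fewer cells of a type and less RNA per cell cannot be told apart in such bulk samples.

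**Figure D1:**
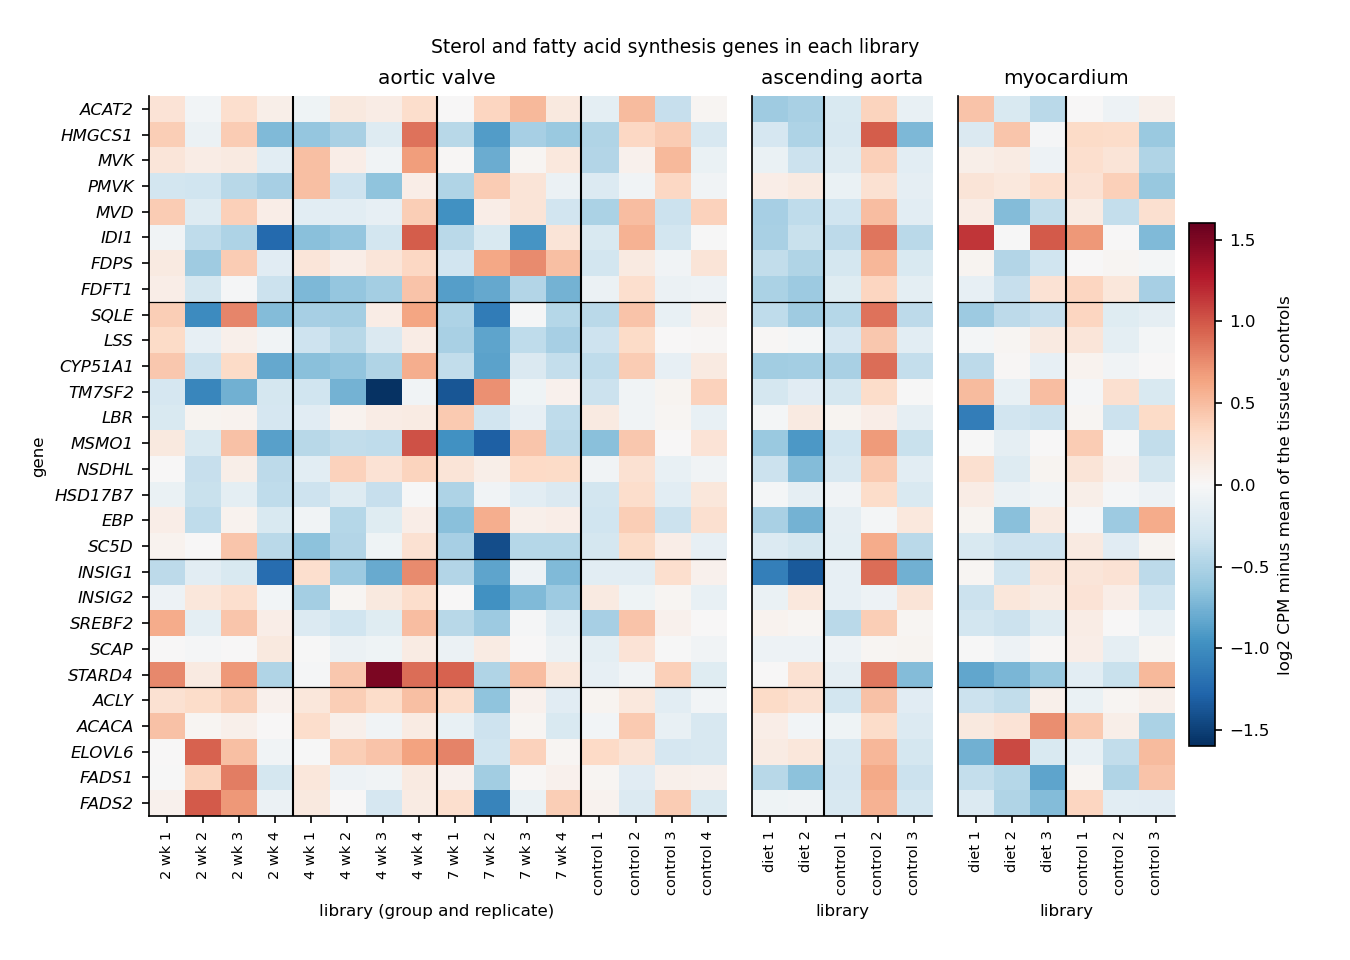
Level of each of the 28 genes (down the page: acetyl-CoA to squalene, squalene to cholesterol, sterol sensing and transport, fatty acid synthesis) in each of the 27 libraries (across), as log2 CPM minus the mean of the log2 CPM of the controls of the same tissue. Red is higher and blue lower; valve 4-week replicate 4 and aorta control replicate 2 are red for most cholesterol enzymes.

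After 7 weeks of diet 1 of the 28 genes was called in the valve, LSS, which was lower than in controls, where 7.79% of all 15973 genes tested were called (830 higher and 415 lower). With 1 of 28 called, the share in the set was below that background, and the count says nothing particular about the set. At an unadjusted p under 0.05 there were 4 of the 28, where 25.85% of all genes passed it. Of the 28 values 21 were negative, with a median of -0.15 against -0.01 over all genes; without 7-week replicate 2, 18 were negative and the median was -0.18.

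LSS, lanosterol synthase, closes squalene epoxide into the first sterol of the route. It stood at 37.7, 30.04, 40.8 and 37.3 CPM in the 7-week valves, against 43.1, 66.8, 54.4 and 54.7 CPM in the controls. All 4 diet valves lay below all 4 controls. The level was 0.667 times that of controls, a log2 change of -0.58 ± 0.16 (adjusted p = 0.0389). The call did not hold when any single one of 7-week replicates 2, 3 and 4 or control replicates 2, 3 and 4 was left out, with changes of -0.64 to -0.47 and adjusted p of 0.0504 to 0.116, nor in a fit of these groups alone (adjusted p = 0.0718).

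FDFT1, squalene synthase, diverts the shared mevalonate products into sterols; it is described because it lay just short of the threshold, a choice made after its values were seen. It stood at 35.2, 36.7, 46.6 and 38.4 CPM in the 7-week valves and at 60.4, 78.0, 60.9 and 61.2 CPM in the controls, a change of -0.73 ± 0.22 (adjusted p = 0.0567). SC5D, a sterol desaturase near the end of the route, stood at 15.7, 8.45, 16.5 and 16.5 CPM in the 7-week valves and at 18.7, 27.97, 24.3 and 20.7 CPM in the controls (-0.67 ± 0.25, adjusted p = 0.105). In FDFT1, SC5D and LSS every 7-week valve lay below every control; 6.26% of all genes tested did so, and 3 of these 28.

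HMGCS1, HMG-CoA synthase at the entry to the mevalonate pathway, stood at 19.2, 14.04, 18.02 and 17.3 CPM in the 7-week valves, against 18.7, 32.7, 34.7 and 21.9 CPM in the controls. The groups overlapped, and the change was -0.65 ± 0.32 (adjusted p = 0.220), with an unadjusted 95% interval of -1.34 to 0.04. SQLE, squalene epoxidase and a rate-limiting step, stood at 6.07, 3.92, 8.41 and 6.23 CPM at 7 weeks, against 6.32, 11.7, 7.88 and 9.05 CPM in controls (-0.49 ± 0.39, adjusted p = 0.441). MSMO1, which oxidises methyl groups of lanosterol products, stood at 8.27, 6.49, 21.9 and 11.96 CPM at 7 weeks, against 10.2, 21.8, 16.2 and 18.7 CPM in controls (-0.45 ± 0.42, adjusted p = 0.526). INSIG1 stood at 16.4, 12.7, 21.5 and 13.9 CPM at 7 weeks, against 20.2, 20.2, 27.3 and 23.8 CPM in controls (-0.50 ± 0.31, adjusted p = 0.326). The unadjusted 95% intervals for SQLE and MSMO1 were wide, -1.31 to 0.33 and -1.34 to 0.44, and leave the direction undecided. Without 7-week replicate 2 the change was -0.33 for SQLE and -0.24 for MSMO1.

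**Figure D2:**
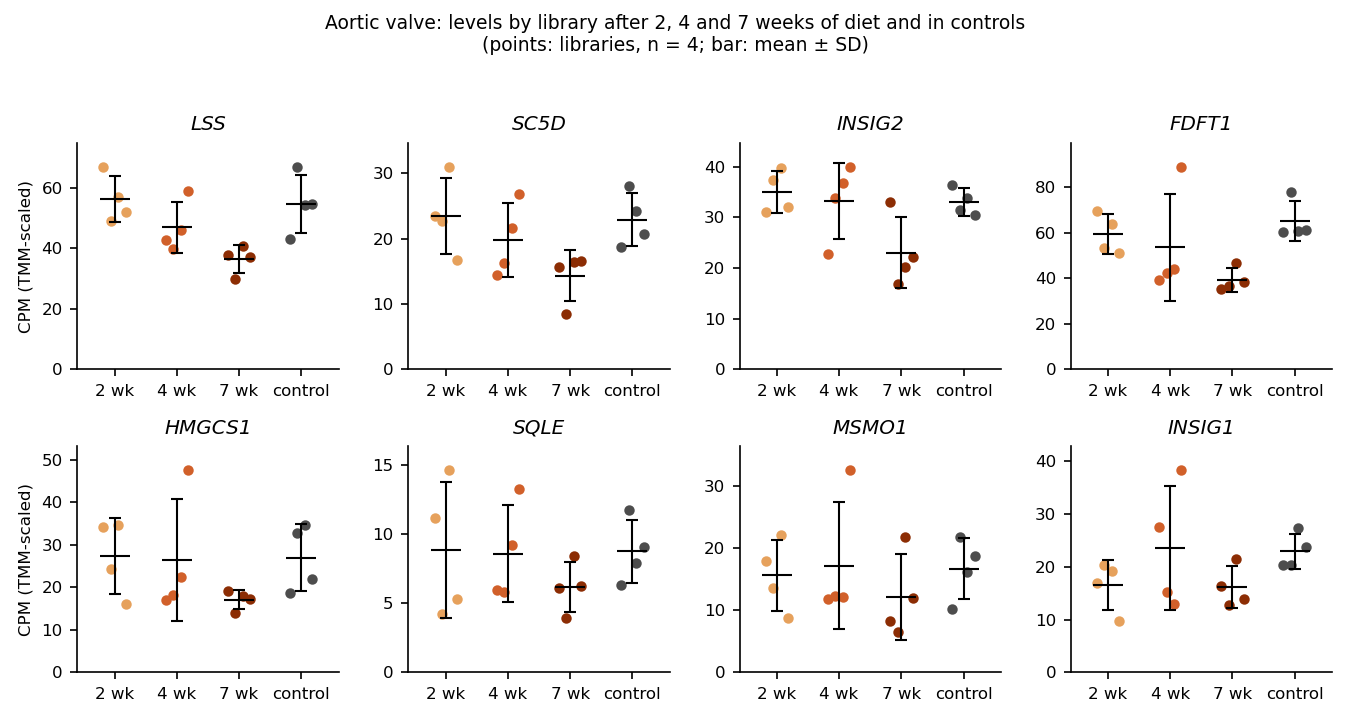
Level in CPM (vertical axis, from 0) of 8 genes in the valves after 2, 4 and 7 weeks of diet and in controls; points are libraries, bars the mean ± SD of 4. For LSS, SC5D and FDFT1 the 7-week points lie below all control points, and 1 library at 4 weeks is high for FDFT1, HMGCS1 and MSMO1.

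The rest of the route showed no common direction at 7 weeks. Among the 8 genes from acetyl-CoA to squalene, FDPS, farnesyl pyrophosphate synthase, had the highest value, 0.42 ± 0.23 (adjusted p = 0.255), and ACAT2, the thiolase of the first step, stood at 0.23 ± 0.18. The kinases MVK and PMVK, the decarboxylase MVD and the isomerase IDI1 lay between -0.34 and 0.03. Among the 10 from squalene to cholesterol, 8 were negative, with a median of -0.35; NSDHL, a sterol dehydrogenase, and the isomerase EBP were positive, at 0.23 ± 0.17 and 0.05 ± 0.24. CYP51A1, the lanosterol demethylase, stood at -0.47 ± 0.31 and the reductase HSD17B7 at -0.25 ± 0.15, while TM7SF2 and LBR, which carry out the same sterol reduction, stood at -0.02 ± 0.37 and -0.07 ± 0.16. Without 7-week replicate 2 TM7SF2 stood at -0.33 and EBP at -0.14. SREBF2 stood at -0.33 ± 0.23, SCAP at -0.02 ± 0.11 and STARD4, a carrier of cholesterol between membranes, at 0.37 ± 0.37. INSIG2 stood at -0.51, and at -0.39 (adjusted p = 0.297) without 7-week replicate 2. Among the 5 sensing and transport genes the smallest adjusted p was 0.118. The 5 fatty acid genes ran from -0.18 (ACACA) to 0.26 (ELOVL6), with adjusted p of at least 0.490.

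Other cell types moved in the same valves. Of 8 smooth muscle markers 6 were called lower at 7 weeks, with a summed level of 8889 to 15000 CPM against 20230 to 36130 CPM in controls. Of 10 macrophage markers 9 were called higher, at 563.9 to 798.4 CPM in all against 93.2 to 217.6 CPM in controls, and 6 of 9 tested cell cycle genes were called higher. Of the adipocyte markers 1 of 6 tested was lower, LEP, and of the endothelial markers 1 of 8 was higher, VWF; the 8 listed adipocyte markers summed to 507.3 to 917.9 CPM against 424.1 to 980.1 CPM, and 1 or 2 of them were at 0 in each 7-week valve. The part of smooth muscle and macrophage content in the LSS result was not tested. Heart muscle transcripts were present in all valves, 5322 to 38320 CPM over 9 markers at 7 weeks and 7974 to 35110 CPM in controls, and none of the 9 was called. With the heart muscle score as a covariate the LSS change was -0.61 (adjusted p = 0.0257). With the adipocyte score as a covariate LSS was not called.

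At 2 weeks 0 of the 28 genes were called, where 0.0250% of all genes were, and 0 had an unadjusted p under 0.05, where 16.4% of all genes did. The median was 0.02, and 0.02 over all genes. LSS stood at 66.8, 49.2, 57.0 and 52.1 CPM at 2 weeks, a change of 0.04 ± 0.16 from controls; HMGCS1 (0.01 ± 0.32), SQLE (0.01 ± 0.38) and MSMO1 (-0.10 ± 0.42) were as close. INSIG1 stood at 16.98, 20.2, 19.1 and 9.73 CPM, a change of -0.47 ± 0.31 (adjusted p = 0.502). All 5 fatty acid genes had positive values, from 0.13 (ACACA) to 0.45 ± 0.28 (FADS2), with adjusted p of at least 0.469. PMVK, phosphomevalonate kinase, was the one gene whose 2-week valves all lay below the controls, at 25.3 to 29.9 CPM against 31.6 to 46.3 CPM (-0.41 ± 0.23, adjusted p = 0.395); 6.14% of all genes did so. PMVK was also higher in control myocardium, 70.5 ± 23.6 CPM, than in control valves, 33.6 ± 6.004 CPM (SD, n = 3 and 4, on a scale common to the tissues). Heart muscle markers summed to 896.0 to 3386 CPM at 2 weeks against 7974 to 35110 CPM in controls, with 0 of 9 called and a median log2 change of -3.25, so muscle content and the 2-week diet cannot be told apart; with the heart muscle score as a covariate PMVK stood at 0.10 and the median of the 28 genes at -0.15.

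At 4 weeks 0 of the 28 were called, where 2.00% of all genes were, 1 had an unadjusted p under 0.05 (12.8% of all genes did), and the median was -0.01. Of the fatty acid genes ACLY, ATP citrate lyase, had all 4 valves above the controls, at 62.3 to 77.0 CPM against 48.97 to 61.7 CPM (0.34 ± 0.16, adjusted p = 0.406), as 4.11% of all genes did. With the heart muscle score as a covariate it stood at 0.16. In the same valves 9 of 10 macrophage markers and 5 of 9 tested cell cycle genes were called higher, with median log2 changes of 2.31 and 2.01; their part in the ACLY values was not tested. STARD4 had the highest value, 0.80 ± 0.36 (adjusted p = 0.366). LSS stood at -0.22, SC5D at -0.21, INSIG2 at 0.01 and INSIG1 at 0.04. The 4-week valves were split by replicate 4. In it HMGCS1 stood at 47.5 CPM, MSMO1 at 32.6 CPM, SQLE at 13.2 CPM and FDFT1 at 88.7 CPM, against 17.05 to 22.55, 11.9 to 12.3, 5.82 to 9.23 and 39.3 to 44.3 CPM in the other 3. Without this library FDFT1 was called lower at 4 weeks (-0.64 ± 0.15, adjusted p = 0.0247) and the median was -0.16. The library also had the lowest macrophage sum of its group, 227.5 CPM against 577.3 to 1161 CPM in the other 3, and the highest smooth muscle sum, 28480 CPM; the part of these in its enzyme levels was not tested.

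Between the diet groups at 7 and 2 weeks 3 of the 28 genes were called, all lower at 7 weeks, where 26.7% of all genes were called. At an unadjusted p under 0.05 there were 6 of the 28, where 40.76% of all genes passed it. The median over the set was -0.23 against 0.02 over all genes. LSS stood at 37.7, 30.04, 40.8 and 37.3 CPM at 7 weeks, against 66.8, 49.2, 57.0 and 52.1 CPM at 2 weeks (-0.62 ± 0.16, adjusted p = 0.0125). SC5D stood at 15.7, 8.45, 16.5 and 16.5 CPM at 7 weeks, against 23.5, 22.7, 30.9 and 16.7 CPM at 2 weeks (-0.70 ± 0.25, adjusted p = 0.0477). INSIG2 stood at 33, 16.8, 20.2 and 22.1 CPM at 7 weeks, against 31.1, 37.3, 39.8 and 31.95 CPM at 2 weeks (-0.60 ± 0.20, adjusted p = 0.0370). LSS, SC5D and FDFT1 were lower in every 7-week valve than in every 2-week valve, as were 11.5% of all genes. For INSIG2, 7-week replicate 1 lay within the 2-week range. NSDHL was higher in every 7-week valve than in every 2-week valve, as were 13.1% of all genes. It stood at 10.27 to 11.97 CPM against 7.21 to 10.25 CPM. FDFT1 (-0.60 ± 0.22, adjusted p = 0.0579) and SREBF2 (-0.56 ± 0.23, adjusted p = 0.0829) fell short of the threshold.

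Heart muscle content differed between the same groups. Of 9 cardiomyocyte markers 8 were called higher at 7 than at 2 weeks, with sums of 5322 to 38320 CPM against 896.0 to 3386 CPM. Of 8 smooth muscle markers 7 were called lower and 1, DES, higher. All 10 macrophage markers, 6 of 9 tested cell cycle genes and 3 of 8 endothelial markers were called higher. The part of these other cell types in the LSS, SC5D and INSIG2 values was not tested. With the heart muscle score as a covariate 0 of the 3 genes were called; LSS stood at -0.40 (adjusted p = 0.402), SC5D at -0.43 (adjusted p = 0.598) and INSIG2 at -0.42 (adjusted p = 0.508). Every 7-week valve held more heart muscle transcript than every 2-week valve, so muscle content and duration cannot be told apart in this comparison. LSS was called in 15 of the 16 alternatives run, INSIG2 in 6 and SC5D in 5. Without 7-week replicate 2, the one richest in heart muscle, INSIG2 and SC5D were not called (-0.49, adjusted p = 0.102, and -0.53, adjusted p = 0.134), and the median of the set was -0.12; with the covariate it was -0.07.

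Neither step between neighbouring durations gave a call among the 28 genes: 0 at 4 against 2 weeks, where 4.36% of all genes were called, and 0 at 7 against 4 weeks, where 0.100% were. At an unadjusted p under 0.05 these counts were 1 and 3, where 19.7% and 12.03% of all genes passed it. At 7 against 4 weeks 22 of the 28 values were negative with a median of -0.26, against -0.02 over all genes; all 5 sensing and transport genes and all 5 fatty acid genes were among them, ACLY at -0.42 ± 0.16 (adjusted p = 0.366). Without 4-week replicate 4, 16 were negative and the median was -0.04; FDFT1 then stood at -0.10, HMGCS1 at -0.16 and MSMO1 at 0.02. These comparisons share libraries with each other and with those against control.

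Most cholesterol enzymes varied together from valve to valve within groups. For each gene the log2 level was taken as the deviation from its group mean over the 16 valves and set against the mean of the other cholesterol enzymes. Over the 18 enzymes Pearson's r had a median of 0.64 and ran from -0.18 to 0.91, beside a median of 0.01 and a 5th to 95th percentile of -0.58 to 0.49 over the 15945 other genes tested. SREBF2 followed the enzymes most closely, with r = 0.93 and Spearman's rho = 0.89, and next came CYP51A1 (r = 0.91), FDFT1 (r = 0.88) and MSMO1 (r = 0.88). LBR, which also anchors chromatin at the nuclear envelope, had r = -0.18, and TM7SF2, the other reductase of that step, r = 0.29. Like these, MVK (r = 0.44) and PMVK (r = 0.22) lay within the 5th to 95th percentile of the other genes. The 5 fatty acid genes had a median of 0.27. INSIG1 had r = 0.58 and INSIG2 r = 0.04. Leaving out the 2 libraries farthest from the median, 4-week replicate 4 and control replicate 2, r was 0.88 for SREBF2, 0.85 for CYP51A1, 0.82 for FDFT1 and 0.82 for MSMO1, and 0.35 for IDI1, against 0.64 with them. For SCAP r was 0.08 without these 2 libraries, against 0.46 with them. These correlations are a description over valves that share depth and tissue mix, of genes chosen for a shared pathway.

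**Figure D3:**
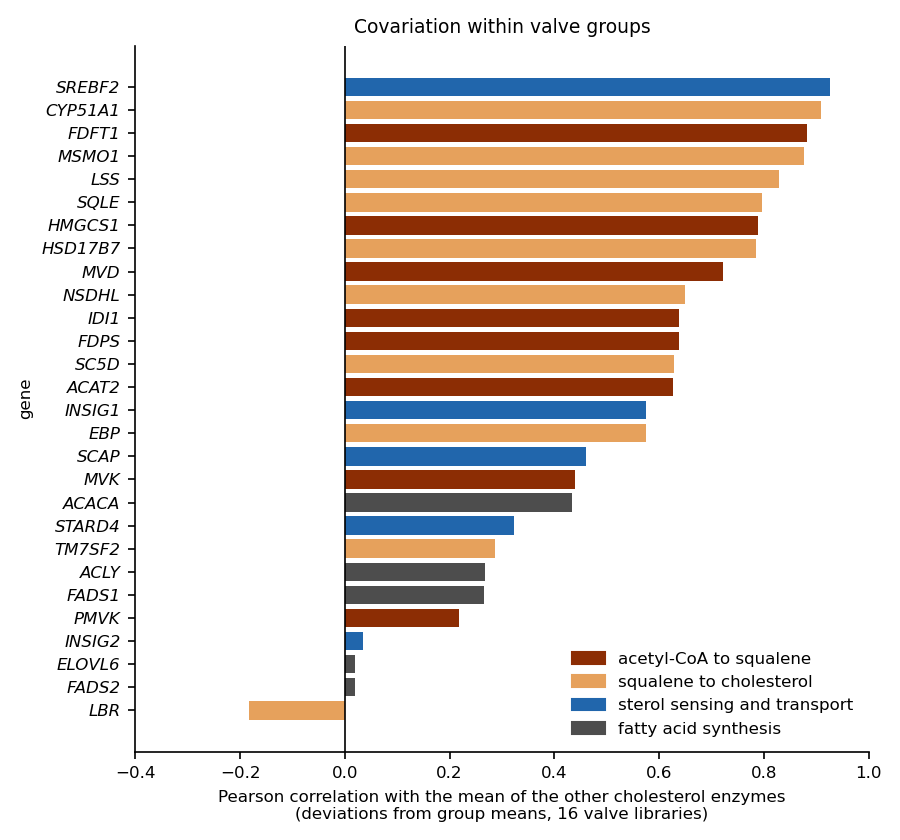
Pearson correlation (horizontal axis) of each gene (vertical axis) with the mean of the other cholesterol enzymes over 16 valve libraries, after group means were taken out; colours mark the place in the pathway. SREBF2 and CYP51A1 are at the top, at 0.93 and 0.91, and LBR is below 0.

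In the ascending aorta of diet animals most cholesterol enzymes had lower values than in controls, and 0 of the 28 were called, where 0.159% of 14435 genes tested were and 4 of the 28 had an unadjusted p under 0.05, as 12.25% of all genes did. Of the 28 values 21 were negative, with a median of -0.29 against -0.02 over all genes. Adipocyte markers summed to 135.9 to 139.4 CPM in diet aortas against 153.7 to 466.1 CPM in controls, with 2 or 3 of the 8 at 0 in each aorta, and endothelial markers to 107.7 to 110.1 CPM against 117.2 to 315.4 CPM. The upper ends of the control ranges are control replicate 1. Control replicates 2 and 3 stood at 153.7 and 160.2 CPM for adipocyte and at 122.8 and 117.2 CPM for endothelial markers. Both diet aortas lay below all controls in these sums, with 0 of 5 and 0 of 8 tested markers called. The median log2 changes were -1.48 and -0.63, with control replicate 1 included. The part of these cell types in the enzyme values was not tested. All but PMVK of the 8 genes from acetyl-CoA to squalene were negative, and all but LBR of the 10 from squalene to cholesterol. The 2 diet aortas lay below all 3 controls for 10 of the 28 (ACAT2, MVD, FDPS, FDFT1, CYP51A1, MSMO1, NSDHL, EBP, INSIG1 and FADS1); 15.7% of all genes tested did so.

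INSIG1 had the lowest value. It stood at 9.96 and 8.42 CPM in diet aortas, against 19.5, 39.7 and 12.5 CPM in control aortas, a change of -1.39 ± 0.49 (adjusted p = 0.364). EBP, the gene with the smallest adjusted p, stood at 10.8 and 9.13 CPM in diet aortas and at 14.1, 15.2 and 17.4 CPM in control aortas (-0.64 ± 0.17, adjusted p = 0.261). MSMO1 stood at 13.2 and 10.6 CPM in diet aortas, against 15.95, 32.1 and 15.6 CPM in control aortas (-0.84 ± 0.36, adjusted p = 0.426). HMGCS1 and SQLE overlapped between the groups. HMGCS1 stood at 26.95 and 23.0 CPM in diet aortas, against 27.3, 63.8 and 19.7 CPM in controls (-0.57 ± 0.49, adjusted p = 0.646). SQLE stood at 7.94 and 7.11 CPM in diet aortas, against 7.68, 19.3 and 7.90 CPM in controls (-0.64 ± 0.45, adjusted p = 0.579). LSS, called in the valve, stood at 65.4 and 63.7 CPM in diet aortas, against 53.9, 87.5 and 57.8 CPM in controls (-0.04 ± 0.22, adjusted p = 0.950).

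Without control replicate 2 the median over the 28 genes was -0.02 and 16 were negative. HMGCS1 then stood at 0.09, SQLE at -0.05, CYP51A1 at -0.10 against -0.71 with it, and IDI1 at -0.01 against -0.58. INSIG1 stood at -0.80 (adjusted p = 0.145), EBP at -0.66 (adjusted p = 0.119), MSMO1 at -0.41 and FDFT1 at -0.37 (adjusted p = 0.0968), with 0 of the 28 called. Its adipocyte markers, 153.7 CPM, were the lowest of the 3 controls, and its cardiomyocyte markers, 648.6 CPM against 412.2 and 539.3 CPM, the highest; their part in its enzyme levels was not tested.

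**Figure D4:**
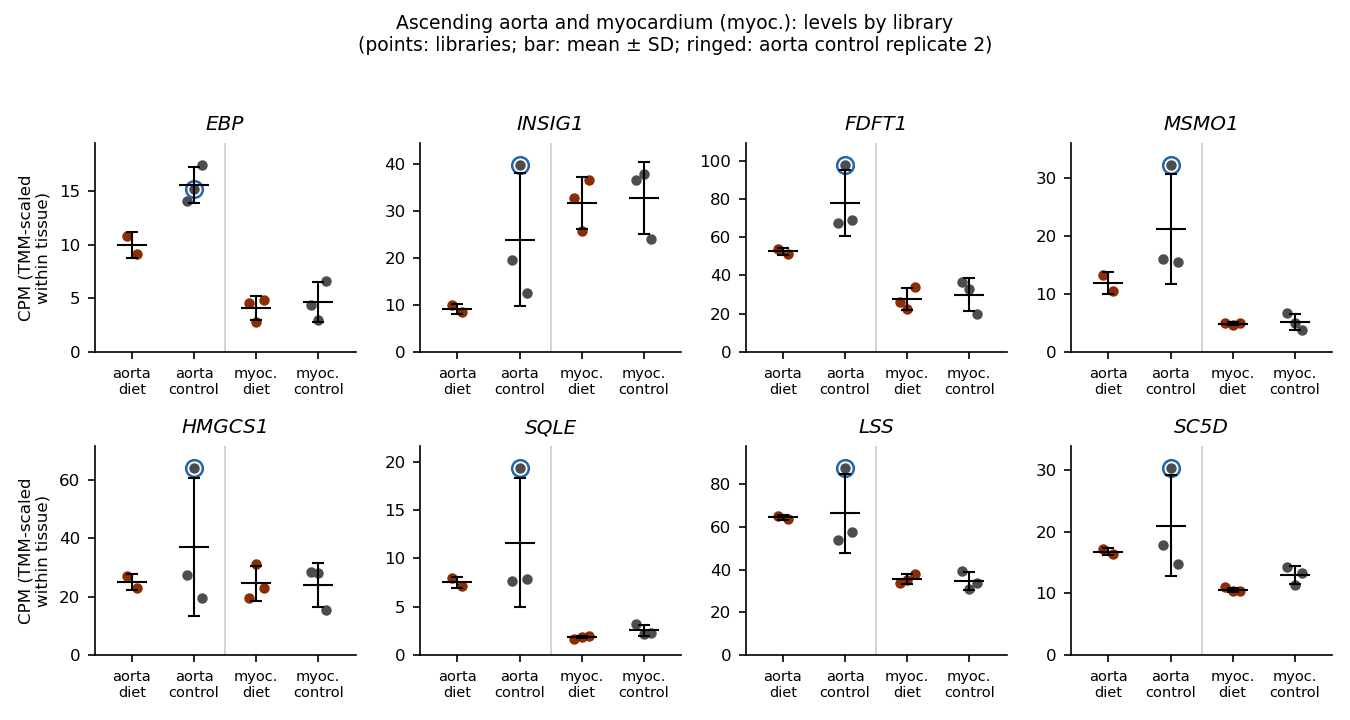
Level in CPM (vertical axis, from 0, scaled within tissue) of 8 genes in ascending aorta and myocardium, diet left of control in each; points are libraries, bars the mean ± SD of 2 or 3, and the ring marks aorta control replicate 2. This library is the highest aorta for all of the genes shown but EBP.

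In the myocardium 0 of the 28 genes were called, where 0.0848% of 14151 genes tested were, and 0 had an unadjusted p under 0.05, where 8.85% of all genes did; 19 values were negative and the median was -0.06 against -0.01 over all genes. HMGCS1 stood at 19.6, 31.3 and 22.8 CPM in diet myocardium, against 28.3, 28.1 and 15.3 CPM in control myocardium (0.04 ± 0.29). MSMO1 stood at 5.03, 4.60 and 5.07 CPM in diet myocardium, against 6.69, 5.05 and 3.85 CPM in controls (-0.08 ± 0.28). INSIG1 stood at 32.8, 25.8 and 36.7 CPM in diet myocardium, against 36.6, 37.8 and 23.9 CPM in controls (-0.05 ± 0.24). The intervals for these 3 genes lay between -0.72 and 0.72. SQLE stood at 1.70, 1.89 and 1.97 CPM in diet myocardium, against 3.20, 2.22 and 2.28 CPM in controls (-0.47 ± 0.33, adjusted p = 0.826), from as few as 25 counts a library. The 3 diet myocardia lay below the 3 controls for SQLE, SC5D, SREBF2, STARD4 and FADS2, 5 of 28, as did 7.34% of all genes tested. Fibroblast marker sums were also apart, 1277 to 2061 CPM in diet against 2218 to 3161 CPM in control myocardium. Smooth muscle sums were 2944 to 3314 against 2280 to 2498 CPM. In each list 0 of 8 markers were called, with median log2 changes of -0.07 and -0.39. The smooth muscle sum was thus higher in diet myocardium while the median marker was lower, so the sum does not stand for the list. The part of these cell types in the values of these genes was not tested. LSS stood at 33.6, 35.1 and 38.2 CPM in diet myocardium, against 39.3, 30.96 and 33.6 CPM in controls (0.04 ± 0.17).

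**Figure D5:**
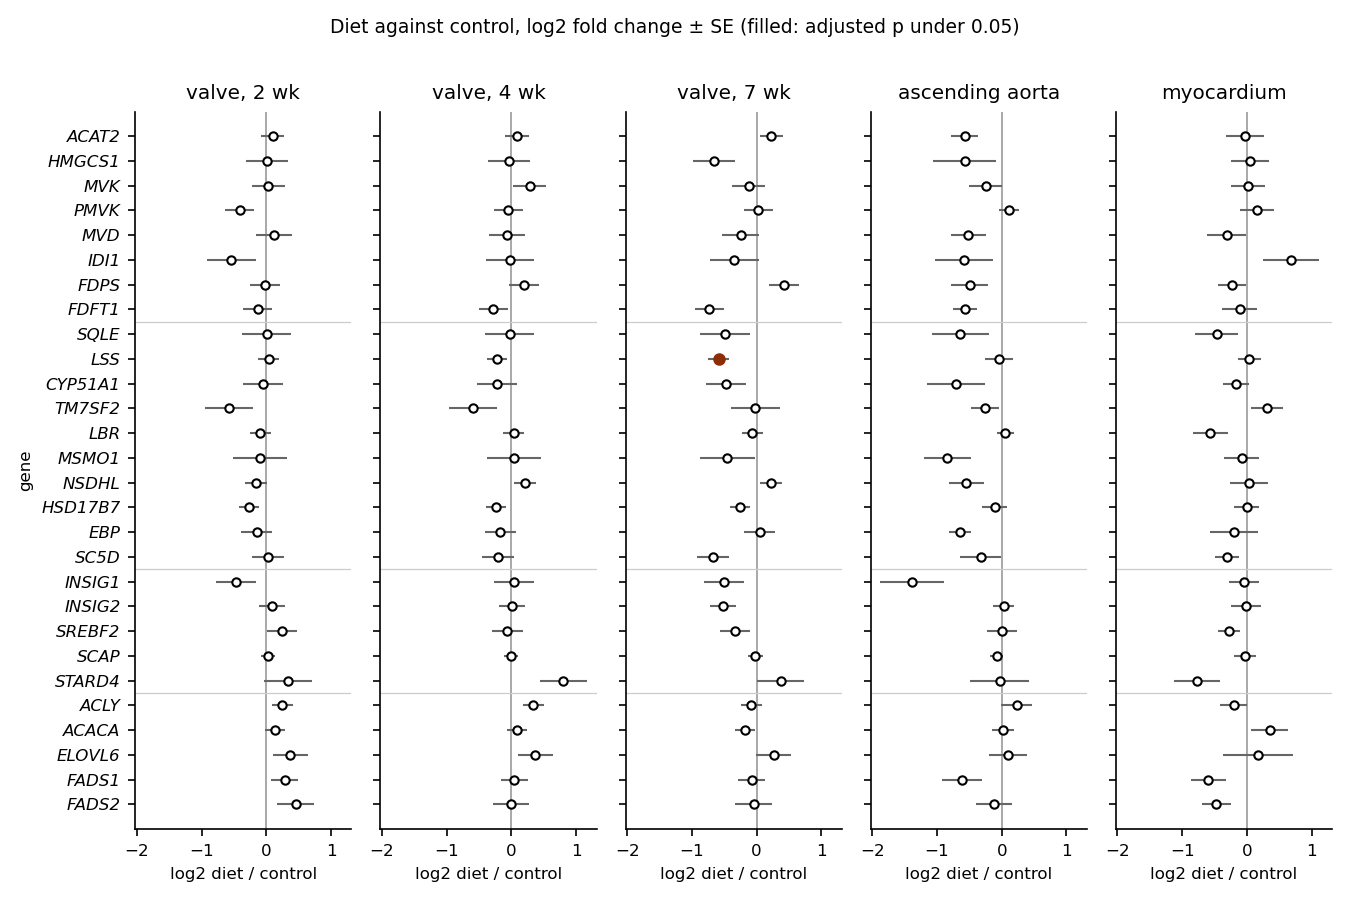
Log2 fold change of diet against control ± SE (horizontal axis) for each of the 28 genes (vertical axis, in pathway order) in valves after 2, 4 and 7 weeks, in ascending aorta and in myocardium. LSS at 7 weeks is the one filled point, an adjusted p under 0.05; most points of the aorta lie left of 0.

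Whether the diet acted differently in the tissues was tested directly, in fits that did not model the animals shared between tissues. The 7-week valve effect minus the myocardium effect gave 0 calls among the 28 genes, where 0.639% of all genes were called. All 18 alternatives, the animal as a block among them, also gave 0. In the main fit LSS came closest, at -0.64 ± 0.24 (adjusted p = 0.203). The mean valve effect minus the aorta effect gave 0, where 0.0474% were called, with INSIG1 at 1.05 ± 0.55 (adjusted p = 0.580) and ACAT2 at 0.67 ± 0.28 (adjusted p = 0.511). The aorta effect minus the myocardium effect gave 0, where 0.216% were called, with INSIG1 at -1.32 ± 0.56 (adjusted p = 0.562). Without aorta control replicate 2 INSIG1 stood at 0.43 for valve minus aorta and at -0.72 for aorta minus myocardium, ACAT2 at 0.44 for valve minus aorta, and the medians of the 28 genes changed sign, to -0.17 and 0.10, against 0.24 and -0.17 with it. At an unadjusted p under 0.05 each of the 3 tests gave 1 gene, where 15.2%, 9.18% and 8.04% of all genes passed it, and DESeq2 gave 0 calls in each and in every other comparison with 0. The LSS call in the valve is not shown to be particular to that tissue.

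The tissues also differed from each other in the level of single genes. On a scale common to the 27 libraries, all 16 valves lay above all 6 myocardia for ACAT2, NSDHL, EBP and ELOVL6, 4 of 28, where 11.8% of all genes did so. All 5 aortas lay above all 6 myocardia for 14 of the 28, where 23.2% of all genes did. SQLE averaged 12.2 ± 7.30 CPM in control aortas, 7.91 ± 1.98 CPM in control valves and 3.25 ± 0.72 CPM in control myocardium (SD, n = 3, 4 and 3); the 3 control aortas stood at 7.87, 20.7 and 8.17 CPM, so the aorta mean rests on replicate 2. ELOVL6, the fatty acid elongase, averaged 7.17 ± 2.63, 6.39 ± 1.303 and 1.96 ± 0.63 CPM in the same order, with control aortas at 5.68, 10.2 and 5.62 CPM. FADS2 ran the other way, with 97.7 ± 22.4 CPM in control myocardium, 35.2 ± 8.05 CPM in control valves and 29.2 ± 11.1 CPM in control aortas, where the libraries stood at 23.1, 42.02 and 22.6 CPM. Valves and aortas overlapped for all but ACACA, acetyl-CoA carboxylase, which was lower in every valve than in every aorta, as were 5.12% of all genes.

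Of 30 other genes of lipid synthesis and its regulation, 0 were called in any tissue against control: in valve, 0 at 2, 4 and 7 weeks, and 0 in aorta and myocardium. At 7 against 2 weeks 1 was called higher, DGAT1, which makes triglyceride (0.62 ± 0.22, adjusted p = 0.0472), and 1 lower, ME1, the malic enzyme that supplies NADPH (-1.34 ± 0.32, adjusted p = 0.00880). These 2 of 30 stand beside the 26.7% of all genes called in that comparison, in which heart muscle content differs as given above. The median of the 30 was -0.13.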

How the data were processed

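RNA of single valve cusps, ascending aorta and left ventricular myocardium was sequenced as 100 bp single-end reads, per the labels' protocols. The deposited values are expected counts per gene from RSEM. RSEM (1.3.3), STAR (2.7.8a), Trim Galore (0.6.6), FastQC (0.11.9) and edgeR (3.42.4) are named in the submitters' processing notes. Genome build and annotation were not given in the sources used; coordinates and sequences are not printed. Of the valve values 10.1% were not whole, and all were rounded. The full valve table was used; the authors' second valve table, without genes named as myocardial, was an alternative.

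Each tissue had 1 fit in edgeR 4.0.16 (R 4.3.3): filterByExpr by group (minimum count 10, minimum total 15), TMM scaling, the quasi-likelihood test, two-sided, Benjamini-Hochberg adjustment over all genes tested, threshold 0.05. SE is the change divided by the root of F, and 95% intervals use the t distribution of the test. Differences between tissues were contrasts in joint fits. The test was run on simulated counts as a check, and the outcome, power included, is not reported here. Alternatives were DESeq2 1.42.0, RLE factors, no filter, marker covariates, the compared groups alone, blocks and leaving out each library. The animals are separate, so n counts animals within a tissue. Counts are reads, not molecules. Genes and lists were chosen with earlier results of these data known. By rule every member is accounted for. Library values are given for those called in any comparison and for HMGCS1, SQLE, MSMO1 and INSIG1, though not in every comparison. Other genes with library values were chosen after their values were seen.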

Additional observations from a re-analysis of the deposited data

Results flagged for a closer look

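In 112 sets of 4 valve libraries (28 genes in 4 groups), 12 values stood apart from the other 3 of their set by Dixon's criterion, which chance reaches in about 1 of 20 sets. Valve 4-week replicate 4 gave 6 of them, all high: MSMO1 at 32.6 CPM against 11.9 to 12.3 CPM in the other 3, FDFT1 at 88.7 CPM against 39.3 to 44.3 CPM, CYP51A1 (LOC100355623) at 34.8 CPM against 14.6 to 16.7 CPM, IDI1 (LOC100343510) at 14.6 CPM against 4.71 to 6.12 CPM, MVD at 12.3 CPM against 8.34 to 8.61 CPM, and SREBF2 at 117.3 CPM against 67.1 to 72.8 CPM. Valve 7-week replicate 2 gave 2, both low, SC5D at 8.45 CPM against 15.7 to 16.5 CPM and FADS1 at 66.1 CPM against 98.5 to 101.6 CPM. Valve control replicate 2 gave 2, both high, FDFT1 at 78.0 CPM against 60.4 to 61.2 CPM and NSDHL at 11.4 CPM against 8.85 to 9.23 CPM. The others were ACACA at 54.2 CPM in 2-week replicate 1, against 39.2 to 41.2 CPM, and SCAP at 79.2 CPM in 2-week replicate 4, against 70.3 to 71.6 CPM.

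The diet groups at 7 and 2 weeks differed past the threshold in INSIG2 (-0.60), LSS (-0.62) and SC5D (-0.70), on the log2 scale of the test of that difference.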

How the results depend on the processing

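Counts of called genes stayed within 1.5 times under 149 of 171 alternatives. The others concern the valve. Most comparisons had a main count of 0, for which staying means 0 again. Where genes were called, the count stayed in 5 of 16 alternatives at 7 weeks against control. It stayed in 6 of 16 at 7 against 2 weeks. A count can also stay while the called gene changes. At 7 weeks against control the count was 1, and 0 with no filter on low counts, with the adipocyte score as a covariate and with the replicate number as a block, and 2 with DESeq2 (FDFT1 and LSS). Leaving out 1 library gave 0 to 2. In a fit of the compared groups alone the gene called was FDFT1, in place of LSS. At 7 against 2 weeks the count was 3, and 1 with the adipocyte score or the replicate block (LSS in both) and 0 with the cardiomyocyte score; leaving out 1 library gave 1 to 5. At 4 weeks against control leaving out 1 library gave 0 to 1. The cause of these moves was not tested. Of 64 alternatives for the 4 calls, 32 kept the call, 32 lost it and 0 changed direction.

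Same-numbered valves correlated at -0.32 to 0.12, over 0.1 in 2 of 24 pairs, and differently numbered ones at up to 0.37. With groups this small, these values cannot decide whether the replicate numbers pair animals. The valve called control replicate 4 here is numbered 1 in its title, and the title's number was used for these pairs and the replicate block. Over all genes DESeq2 called 965 at 2 weeks, against 4 by edgeR, 771 against 319 at 4 weeks, 2222 against 1245 at 7 weeks, 408 against 23 in aorta and 308 against 12 in myocardium. The block gave 663 at 7 weeks and 96 in aorta, and the cardiomyocyte score 376 at 7 against 2 weeks, where the main count was 4261. The animal as a block was run for valve and myocardium; for the other tissue pairs it was not run, since they share 1 animal or 0.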
